A study of Mus musculus with 6 samples.

Results

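The potassium channel genes were examined in the dorsal telencephalon of mouse embryos with a conditional knockout (cKO) of ESET and of wild type (WT) embryos. ESET, the product of Setdb1, methylates histone H3 at lysine 9. Members were all genes whose symbol in the platform annotation starts with Kcn, except Kcnj8, Kcnq1 and Kcnq1ot1. The rule used no measured difference, but it was set with earlier results of these data known. It took 81 of the 18193 genes measured by a probe set given to 1 gene alone, each read on its brightest probe set by mean log2(intensity + 16) over the 6 arrays. The 81 span 19 classes by symbol, from pore-forming subunits to accessory proteins, and include Kcnmb4os1 and Kcnmb4os2, whose symbols name them as opposite-strand transcripts of Kcnmb4. The label therefore fits the symbols, but not every member encodes a channel pore.

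The study hybridised 6 arrays, 3 cKO and 3 WT, which are named by group and number as in cKO 1. The cKO embryos carried an ESET deletion made with Emx2Cre, so recombination is limited to cells with Emx2 activity, which are mainly dorsal forebrain progenitors and their descendants. The WT embryos carried no such deletion, and whether they carried Cre is not given here. All embryos were at stage E14.5, of C57BL\6 background and labelled male, and 1 embryo per array is taken from the design text. Of the 7 dorsal telencephalon markers listed, 6 were measured, and their summed intensity was between 28303 and 33552 on cKO arrays and between 28340 and 32976 on WT arrays. A sum is weighted to its brightest marker, here Neurod6. Of the 6 markers, 2 had groups apart (33.3%, against 15.5% of all genes), both lower in cKO. Emx2, the gene named in Emx2Cre, averaged 688 ± 49.6 in cKO and 1241 ± 138 in WT (log2 fold change -0.83, adjusted p = 0.0714). Eomes, a marker of intermediate progenitors, averaged 3126 ± 316 in cKO and 4820 ± 211 in WT (-0.63, adjusted p = 0.140). Tbr1, Neurod6, Pax6 and Emx1 overlapped, between -0.21 and 0.20. The part of these differences in the potassium channel values was not tested.

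Potassium channels let potassium ions leave or enter the cell down their gradient. They set the resting potential, end action potentials and shape firing. Voltage-gated (Kv) channels open on depolarisation, calcium- and sodium-activated channels respond to ions inside the cell, inward rectifiers hold the resting potential, and leak channels carry a background current. In the embryonic cortex the resting potential of progenitors and young neurons is known to depend on such channels before synapses mature.

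Facts of the whole data set that bear on these genes were as follows. Setdb1 averaged 633 ± 115 in cKO and 1126 ± 81.9 in WT (intensity, SD, n = 3 each), and its cKO arrays all lay below its WT arrays, but the difference did not pass the threshold (adjusted p = 0.137). The arrays numbered 3 stood apart. The summed intensity of 5 measured erythroid markers was 73702 on cKO 3, against 11130 to 17030 on the other cKO arrays, and 69180 on WT 3, against 12427 to 16344 on the other WT arrays. WT 3 went against its male label, with Xist at 17294 and the Y-linked gene Eif2s3y at 22.2, and cKO 3 carried signal of both (Xist 8811, Eif2s3y 961). The members' median deviation from the other arrays of the group was 0.03 on cKO 3 and 0.07 on WT 3 (log2), against 0.01 and -0.0047 for all genes. Without regard to sign it was 0.27 and 0.37 for the members, against 0.25 and 0.24 for all genes. For the members named by rule, the log2 fold change is also given without both arrays.

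Sequences are shown for the genes that were higher on every cKO array with an unadjusted p below 0.01, a cKO mean of at least 100 and a single entry in the RefSeq promoter table (GRCm38.p6). Each window runs from 250 bases before to 50 bases after that entry's start, 5′ to 3′ on the gene's strand, with CG dinucleotides in capitals. The windows are chr1:192190527-192190826 (+) for Kcnh1, chr3:105451640-105451939 (+) for Kcnd3 and chr1:140245468-140245767 (+) for Kcnt2. The Kcnh1 window begins 1383 bases inside the RefSeq gene record, which starts at base 192189144, so it is not the window at the outermost start of that gene. The Kcnd3 window begins 250 bases before the start of its gene record. The Kcnt2 window begins 189 bases before the start of its record, so its entry starts inside that record.
Kcnh1: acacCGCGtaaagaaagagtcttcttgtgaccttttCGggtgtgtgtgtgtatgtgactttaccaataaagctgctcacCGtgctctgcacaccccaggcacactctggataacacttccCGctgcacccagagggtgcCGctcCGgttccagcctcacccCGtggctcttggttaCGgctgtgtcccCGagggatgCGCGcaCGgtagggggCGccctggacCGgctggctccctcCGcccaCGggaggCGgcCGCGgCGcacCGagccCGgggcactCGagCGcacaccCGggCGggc
Kcnd3: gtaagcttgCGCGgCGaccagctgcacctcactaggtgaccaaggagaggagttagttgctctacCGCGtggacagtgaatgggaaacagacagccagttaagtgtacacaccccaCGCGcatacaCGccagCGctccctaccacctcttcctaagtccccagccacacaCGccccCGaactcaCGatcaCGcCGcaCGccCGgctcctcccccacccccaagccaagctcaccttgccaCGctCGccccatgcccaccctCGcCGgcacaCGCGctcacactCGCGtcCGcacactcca
Kcnt2: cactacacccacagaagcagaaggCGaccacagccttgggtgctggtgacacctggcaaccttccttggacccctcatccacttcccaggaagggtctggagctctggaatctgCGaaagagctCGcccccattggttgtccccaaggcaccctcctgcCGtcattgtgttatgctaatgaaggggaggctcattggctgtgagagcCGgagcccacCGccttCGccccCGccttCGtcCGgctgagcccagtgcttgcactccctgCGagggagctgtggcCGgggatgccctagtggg

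The Kcnh1 window held 27 CG dinucleotides and the Kcnd3 window 25, against 12 in that of Kcnt2. The median was 9 over the 87 windows of the 62 members in that table, and 7 over all 32851 windows. Of the motifs searched on both strands, GGGCGG was in the Kcnh1 window and CCAAT in those of Kcnh1 and Kcnt2, while TATAAA was in none of the 3. GGGCGG contains a CG and so overlaps the capitals. Among all windows, 35.7% held GGGCGG, 37.4% CCAAT and 13.6% TATAAA, and among the members' windows 49.4%, 31.0% and 5.75% did. These are matches of letters only.

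In cKO, 1 potassium channel gene rose past the threshold and 0 fell. It was Kcnh1, which encodes the ether-à-go-go (EAG) voltage-gated channel of the brain. The test was limma's moderated test over all genes, with a threshold of 0.05 on the adjusted p. This is 1.23% of the members, where 0.627% of all genes passed, 0.385% higher and 0.242% lower in cKO. With 1 member called, that share says little about the group. With p below 0.05 before adjustment, 10 members were higher in cKO (5.17% of all genes) and 5 were lower (4.39% of all genes), or 18.5% of members, against 9.56% of all genes. Groups did not overlap for 18 members, 11 higher (7.90% of all genes) and 7 lower (7.64% of all genes) in cKO, or 22.2% of members, against 15.5% of all genes. With both arrays numbered 3 left out, they did not overlap for 24 higher and 14 lower members, or 46.9%, against 39.4% of all genes. Whether these shares differ from the background was not tested. The members had no common direction. Their median log2 fold change, cKO minus WT, was -0.04, against 0.01 for all genes, with 38 above 0 and 43 below. Their median absolute log2 fold change was 0.26, against 0.16 for all genes. Both group means were below an intensity of 100 for 45 of the 81 members, against 7156 of all 18193 genes. Groups did not overlap for 11.1% of these 45 members, below the 15.5% of all genes of any brightness. An unadjusted p under 0.05 was found for 8.89% of them, against 9.56% of all genes. Of the 2828 genes that did not overlap, 2025 had a group mean of at least 100, as had 1080 of the 1740 with an unadjusted p under 0.05. A gene with either group mean at or above 100 was set apart as brighter, so it could enter through its higher group alone. Kcnh1, Kcnab1 and Kcna2, with groups apart, entered in this way, as did Kcna3 and Kcnmb2, which overlapped. The shares in the brighter set are therefore not independent of the differences counted. Of the 36 members with a group mean of at least 100, 36.1% did not overlap, against 18.3% of all such genes. In that brighter set 30.6% of members had an unadjusted p under 0.05, against 9.79% of all such genes. The part of brightness in these shares was not tested.

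**Figure D1:**
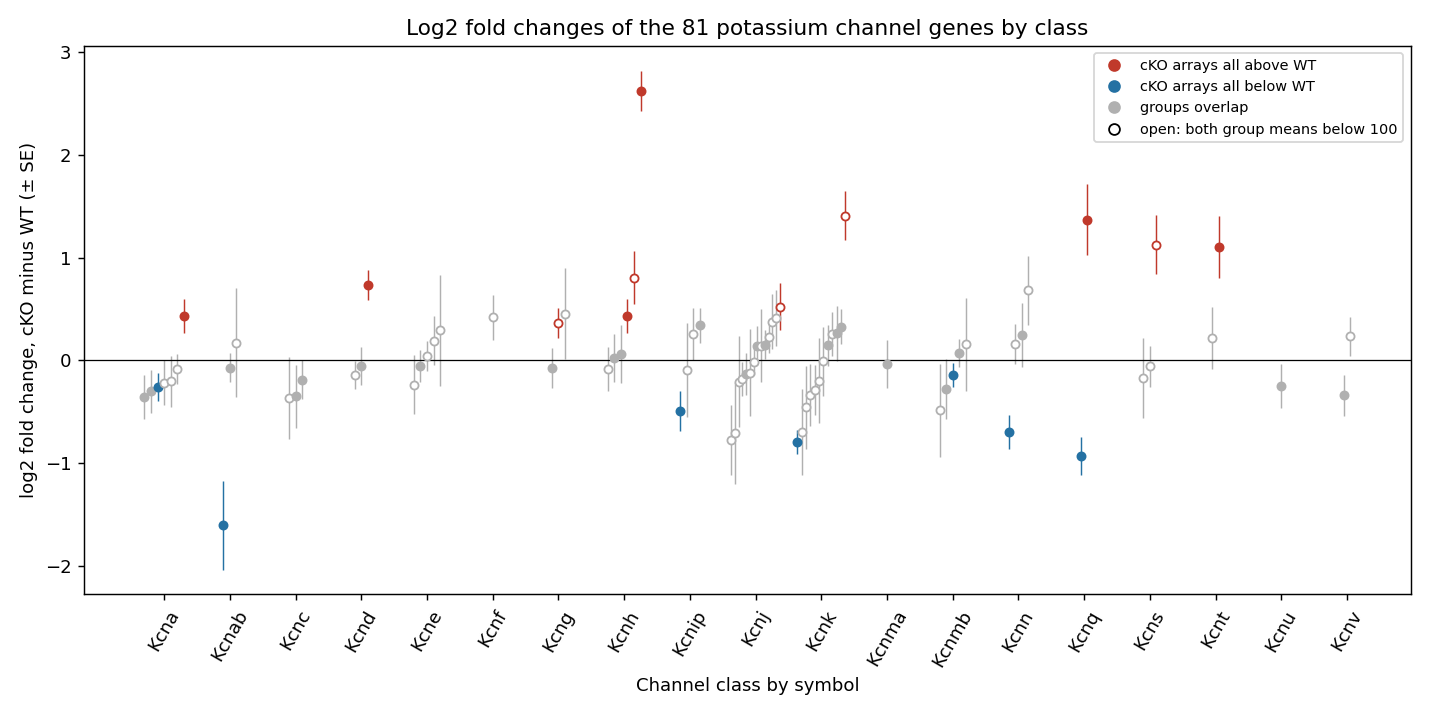
Log2 fold changes (cKO minus WT, y axis) of the 81 potassium channel genes by class (x axis), with bars for the SE of the fit. Red points have all 3 cKO arrays above all WT arrays, blue points all below, grey points overlap, and open points have both group means below 100. Kcnh1 lies highest at 2.62 and Kcnab1 lowest at -1.60.

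The EAG, ERG and ELK channels (Kcnh) held the 1 gene called. Kcnh1 read 337, 285 and 324 on the cKO arrays, against 44.9, 24.98 and 46.6 on the WT arrays. Every cKO array was several times brighter than every WT array. The log2 fold change was 2.62 (SE 0.20, adjusted p = 0.00537). Its other probe set gave 237, 206 and 252 in cKO, against 30.0, 41.0 and 38.1 in WT, and passed over all probe sets too (log2 fold change 2.24, adjusted p = 0.00756, where 0.275% of probe sets passed). In the 6 fits that each left out 1 array, Kcnh1 stayed past the threshold, at 2.42 to 2.73 (adjusted p 0.0150 to 0.0454). Without both arrays numbered 3 it came to 2.71 and did not pass (adjusted p = 0.147), in a fit that called 8 genes in all (0.0440%), where 9.78% had an unadjusted p under 0.05.

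Of the other 5 genes in this class, 2 had groups that did not overlap, both higher in cKO, where 15.5% of all genes did not overlap. Kcnh7, an ERG-type channel, read 74.0, 45.5 and 73.7 in cKO, against 32.4, 41.5 and 17.4 in WT (log2 fold change 0.80, SE 0.26, adjusted p = 0.358). The lowest cKO array, cKO 2, lay just above the highest WT array, WT 2. Without both arrays numbered 3 it came to 0.49. Kcnh8, an ELK-type channel, averaged 181 ± 11.1 in cKO and 132 ± 27.9 in WT (0.43, SE 0.17, adjusted p = 0.474), and came to 0.54 without both arrays numbered 3. The remaining 3, Kcnh2, Kcnh3 and Kcnh5, lay between -0.08 and 0.06.

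**Figure D2:**
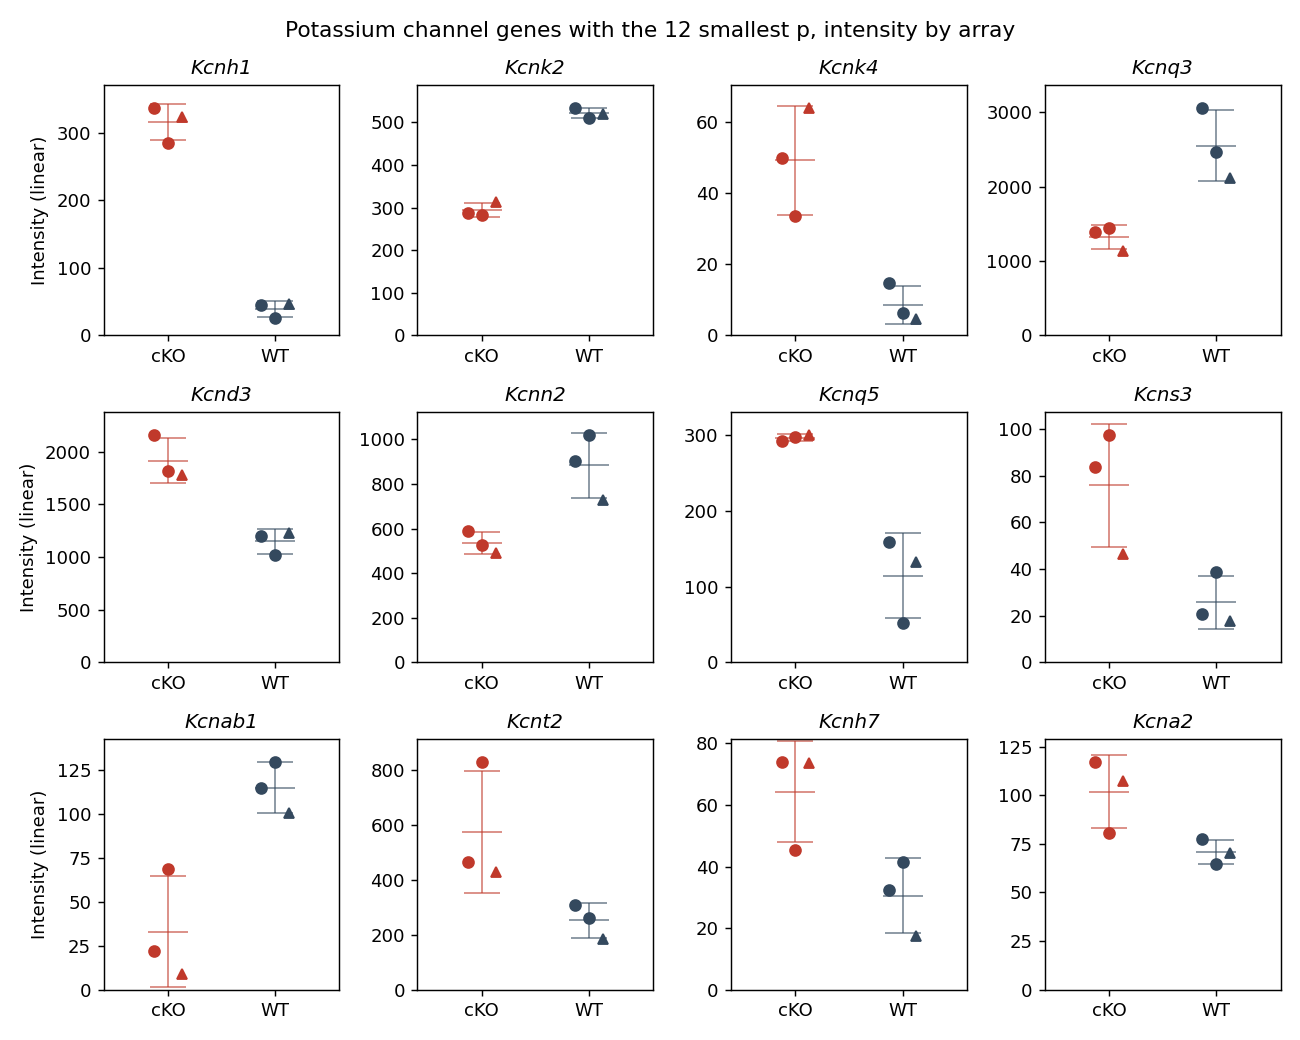
Intensity (linear, y axis) on each array for the 12 potassium channel genes with the smallest p, cKO in red and WT in blue-grey, with mean and SD of 3 arrays as bars. Triangles are the arrays numbered 3. In all 12 panels the cKO and WT arrays do not overlap, with Kcnh1 between 285 and 337 in cKO and between 24.98 and 46.6 in WT.

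The KCNQ class, whose channels carry the M-current that restrains repetitive firing, had 2 measured genes that lay in opposite directions. Kcnq3 read 1383, 1445 and 1134 in cKO, against 3061, 2463 and 2117 in WT. The highest cKO array was well below the lowest WT array, and the log2 fold change came to -0.93 (SE 0.18, adjusted p = 0.121). Its other probe set also had groups apart, at -0.63. Kcnq5 read 292, 297 and 299.6 in cKO, against 158, 52.2 and 132 in WT. The cKO arrays were close together and the WT arrays spread, with WT 2 lowest, and the log2 fold change came to 1.37 (SE 0.35, adjusted p = 0.227). All 3 of its probe sets had every cKO array above every WT array, at 1.37, 0.73 and 1.03. Neither gene passed the threshold over all genes. Kcnq3 came to -0.95 and Kcnq5 to 1.51 without both arrays numbered 3. The difference between the responses of the 2 genes was not tested.

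Among the leak channels (Kcnk), 2 of 12 genes (16.7%, against 15.5% of all genes) had groups apart, in opposite directions. Kcnk2, the mechanosensitive channel TREK, read 287, 282 and 313 in cKO, against 535, 511 and 519 in WT. Both groups were tight, and the log2 fold change of -0.80 (SE 0.11) had an adjusted p of 0.0504, just short of the threshold. It passed with quantile normalization (adjusted p = 0.0369), with a pseudocount of 64 (adjusted p = 0.0166), without genes below the median brightness (adjusted p = 0.00856), with the trend and robust settings (adjusted p = 0.0142) and with array weights (adjusted p = 0.0288). It passed in 0 of the 6 fits that left out 1 array, where it ran from -0.84 to -0.77 (lowest adjusted p = 0.114). Without both arrays numbered 3 it came to -0.84.

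Kcnk4, the related mechanosensitive channel TRAAK, was dim, at 49.98, 33.6 and 63.98 in cKO, against 14.6, 6.38 and 4.501 in WT. The WT values lie below the pseudocount of 16, so the log2 fold change of 1.41 depends on it (SE 0.24, adjusted p = 0.0771). With pseudocounts of 1 and 64 it came to 2.50 and 0.64, and without both arrays numbered 3 to 1.13. Kcnk10, another channel of the TREK family, averaged 738 ± 77.4 in cKO and 590 ± 103 in WT with overlapping groups (0.33, adjusted p = 0.641). It came to 0.23 without both arrays numbered 3 and to 0.19 without WT 3 alone. The other 9 genes of the class had overlapping groups, and 8 of the 12 were below 100 in both groups.

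The Kv4 channels (Kcnd) carry the transient A-type current, and their accessory proteins are the calcium-binding Kcnip proteins. Kcnd3 read 2161, 1813 and 1777 in cKO, against 1199.8, 1016 and 1233 in WT. All cKO arrays lay above all WT arrays, with a fold change of 0.73 on the log2 scale (SE 0.15, adjusted p = 0.126). Its 3 other probe sets were dimmer and pointed the same way, at 0.77, 0.45 and 0.68, with overlapping groups. It passed with a pseudocount of 64 (adjusted p = 0.0486), without genes below the median brightness (adjusted p = 0.0325) and with the trend and robust settings (adjusted p = 0.0227), and came to 0.83 without both arrays numbered 3. The other Kv4 genes, Kcnd1 and Kcnd2, were at -0.14 and -0.05.

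Of the 4 Kcnip genes, Kcnip1 averaged 346 ± 87.2 in cKO and 485 ± 35.5 in WT, with groups that did not overlap (-0.49, SE 0.19, adjusted p = 0.485). The margin was small, since cKO 3 read 443 and WT 2 read 445. Without both arrays numbered 3 it came to -0.65. Of its 3 other probe sets, 1 pointed the other way, at 0.62 from a WT mean of 18.3. Kcnip3, also known as calsenilin and DREAM, averaged 267 ± 30.7 in cKO and 208 ± 37.9 in WT, with overlap (0.34, adjusted p = 0.622), and its other probe set was at -0.80 (SE 0.69). It came to 0.38 without both arrays numbered 3 and to 0.22 without WT 1.

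In the Kv1 class (Kcna), which holds delayed rectifiers of axons, 1 of 7 genes was higher and 6 were lower in mean, none past the threshold. Kcna2 read 117, 80.8 and 107 in cKO, against 77.3, 64.7 and 70.1 in WT. The lowest cKO array lay just above the highest WT array, and the log2 fold change was 0.43 (adjusted p = 0.456), or 0.39 without both arrays numbered 3, and 1 of its 3 other probe sets was at -0.11. Kcna1 averaged 518 ± 137 in cKO and 630 ± 72.4 in WT, with overlapping groups (-0.30, adjusted p = 0.771). It came to -0.45 without both arrays numbered 3, and ran from -0.50 (without cKO 3) to -0.16 (without cKO 2) in fits that left out 1 array.

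Kcnab1 encodes a cytoplasmic beta subunit that speeds the inactivation of Kv1 channels. It read 21.8, 68.4 and 8.75 in cKO, against 115, 129 and 100.4 in WT. The cKO arrays were all below the WT arrays but spread widely, cKO 2 standing highest. The log2 fold change was -1.60 (SE 0.43, adjusted p = 0.254), and it came to -1.29 without both arrays numbered 3. Its other probe set had groups apart as well, at -0.87 (SE 0.20). The other beta subunit genes, Kcnab2 and Kcnab3, were at -0.07 and 0.17.

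Among calcium-activated channels, Kcnn2, which encodes a small-conductance channel of the afterhyperpolarisation, read 588, 528 and 490 in cKO, against 901, 1020.1 and 728 in WT. All cKO arrays were below all WT arrays, with -0.70 on the log2 scale (SE 0.16, adjusted p = 0.192), and -0.77 without both arrays numbered 3. Kcnn4, the intermediate-conductance channel, was dim in both groups and overlapped (0.68, adjusted p = 0.612). It came to 0.44 without both arrays numbered 3, to 0.40 without WT 3 alone and to 1.06 without WT 2. Kcnma1, the pore of the large-conductance channel, averaged 134 ± 29.0 in cKO and 139 ± 33.8 in WT (-0.04, SE 0.23), and came to -0.07 without both arrays numbered 3. Kcnmb4, its neuronal beta subunit, averaged 629 ± 42.3 in cKO and 693 ± 11.7 in WT, a difference of -0.14 on the log2 scale (adjusted p = 0.820) with groups that did not overlap, and of -0.09 without both arrays numbered 3.

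Of the 2 sodium-activated channel genes, Kcnt2, known as Slick, read 467, 831 and 430 in cKO, against 311, 261 and 186 in WT. The cKO arrays lay above the WT arrays, with cKO 2 far above the other cKO arrays, and the log2 fold change was 1.11 (SE 0.30, adjusted p = 0.261) and 1.09 without both arrays numbered 3. Kcnt1 was dim and overlapped (0.22).

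Silent subunits form no channel alone but modify Kv2 channels. Among them, Kcns3 read 83.5, 97.4 and 46.4 in cKO, against 20.7, 38.7 and 17.9 in WT on the probe set used. The groups did not overlap, with 1.12 on the log2 scale (SE 0.29, adjusted p = 0.230), and 1.25 without both arrays numbered 3. The other probe set of Kcns3, with the lower mean log2(intensity + 16), read 103, 157 and 87.0 in cKO, against 7.67, 6.92 and 4.44 in WT. Over all probe sets it passed the threshold (2.53, SE 0.22, adjusted p = 0.0156), but its WT values are below the pseudocount, so that size depends on it. With the mean of all probe sets per gene, Kcns3 passed in the gene table at 1.83 (adjusted p = 0.0365). The other silent subunits named here were short of the threshold, Kcng4 at 0.36 (adjusted p = 0.515, groups apart), Kcnf1 at 0.42 (adjusted p = 0.636), Kcnv1 at -0.34 (adjusted p = 0.711) and Kcng1 at -0.08 (adjusted p = 0.970). Leaving out both arrays numbered 3 gave 0.35 for Kcng4, 0.44 for Kcnf1, -0.25 for Kcnv1 and -0.0056 for Kcng1. Kcnv1 ran from -0.54 (without cKO 2) to -0.20 (without cKO 3) in fits that left out 1 array.

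**Figure D3:**
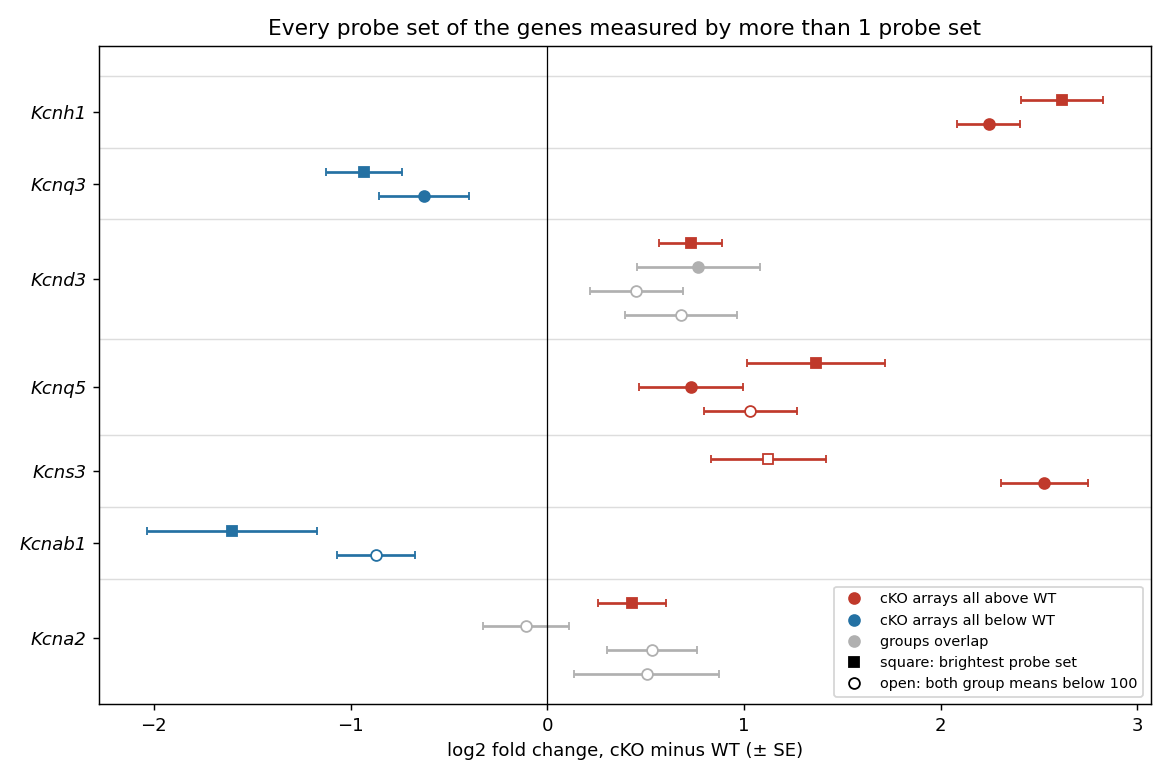
Log2 fold changes (cKO minus WT, x axis, bars are SE) of every probe set of the 7 genes among the 12 smallest p that have more than 1 probe set (y axis). Squares are the probe sets used in the gene table and colours are as in the plot by class. All probe sets of Kcnh1, Kcnq3, Kcnd3, Kcnq5, Kcns3 and Kcnab1 lie on 1 side of 0, and 1 of the 4 of Kcna2 lies on the other side. Of all 45 members with more than 1 probe set, 25 had at least 1 of the opposite sign to the brightest.

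Inward rectifiers (Kcnj) were the class with the most members, 14, of which 11 were below 100 in both groups. Kcnj5, a G protein-gated subunit, averaged 53.0 ± 3.67 in cKO and 33.4 ± 13.6 in WT, with groups apart (0.52, SE 0.23, adjusted p = 0.552). It came to 0.57 without both arrays numbered 3 and to 0.27 without WT 1. Kcnj4, a strong rectifier, averaged 25.4 ± 20.03 in cKO and 50.9 ± 13.3 in WT, with overlap (-0.77, adjusted p = 0.549), or -0.99 without both arrays numbered 3. Kcnj11, the pore of the ATP-sensitive channel, averaged 1077 ± 139 in cKO and 962 ± 40.0 in WT (0.15, SE 0.14, adjusted p = 0.836), and came to 0.22 without both arrays numbered 3 and to 0.051 without cKO 2.

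The Kv3 and Kcne classes and Kcnu1 had no gene with groups apart. All 3 Kv3 genes (Kcnc), channels of fast-firing neurons, had a lower mean in cKO, and Kcnc1 averaged 227 ± 81.5 in cKO and 290 ± 87.6 in WT (-0.35, adjusted p = 0.830). It came to -0.39 without both arrays numbered 3, and ran from -0.60 (without cKO 3) to -0.14 (without cKO 2 and without WT 3) in fits that left out 1 array. Of the 5 Kcne genes, which encode small accessory subunits, 4 were below 100 in both groups, and Kcne1 was at -0.24 (adjusted p = 0.906) on values mostly below the pseudocount, or -0.46 without both arrays numbered 3. Kcnu1, the sperm channel, averaged 216 ± 44.6 in cKO and 260 ± 51.5 in WT (-0.25, adjusted p = 0.821). It came to -0.31 without both arrays numbered 3, and ran from -0.41 (without WT 1) to -0.13 (without cKO 1) in fits that left out 1 array. The 51 members outside the naming rule ran from -0.71 to 0.45 with adjusted p of 0.651 or more, and 1 of them, Kcna6, had groups apart (-0.26, adjusted p = 0.651).

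**Figure D4:**
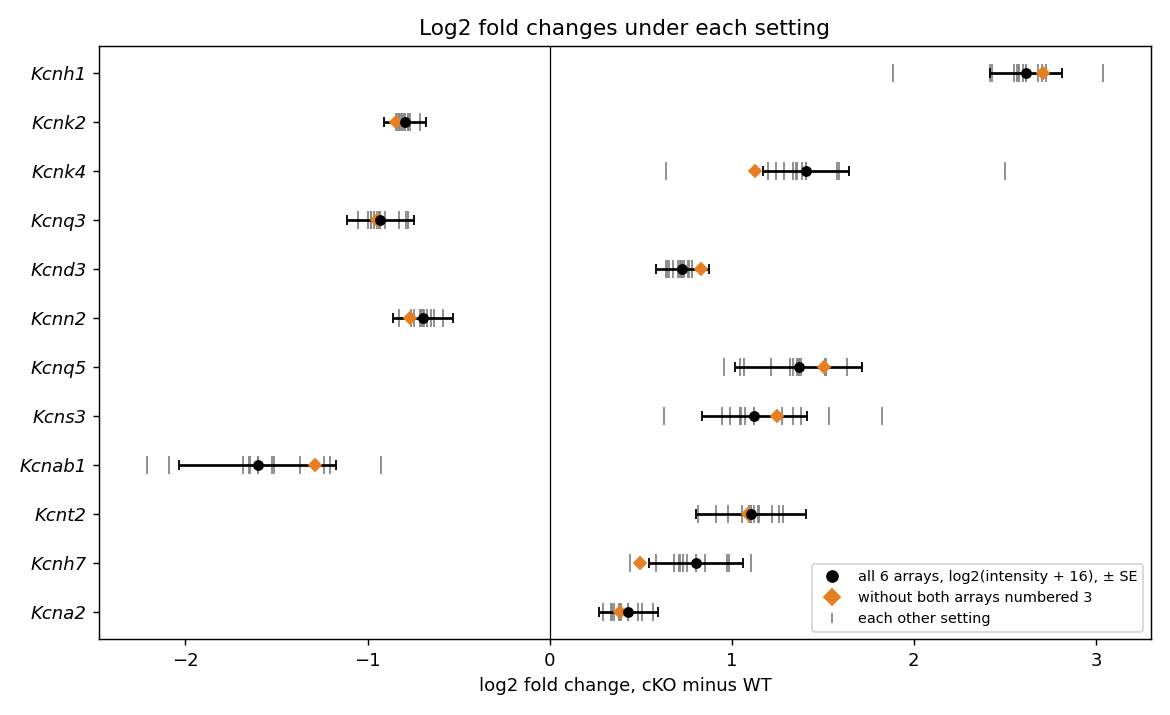
Log2 fold changes (cKO minus WT, x axis) of the 12 potassium channel genes with the smallest p (y axis) in the fit of all 6 arrays (black, bars are SE), without both arrays numbered 3 (orange) and under each other setting (ticks). Each of the 12 keeps its sign throughout, and Kcnh1 runs from 1.89 to 3.04.

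Genes that work with these channels under other names were also counted. Of 20 measured partners (anchors, scaffolds and auxiliary proteins, from 22 listed), limma called 0, and before adjustment 3 had p below 0.05, each lower in cKO, or 15.0% against 9.56% of all genes. Their median log2 fold change was -0.21, with 15 below 0, where 8880 of all 18193 genes were. Lrrc52, an auxiliary protein of the sperm channel, had the smallest p but was dim, at 5.23 ± 2.50 in cKO and 23.3 ± 3.30 in WT (-0.89, adjusted p = 0.0675). Dlg1, a scaffold that binds Kv1 channels, averaged 1450 ± 98.8 in cKO and 2310 ± 260 in WT, with groups apart (-0.66, SE 0.14, adjusted p = 0.145).

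Of 36 measured voltage-gated sodium, calcium and HCN channel genes (43 listed), 0 were called by limma, with a median of 0.06, and before adjustment 1 higher and 2 lower genes had p below 0.05, or 8.33% against 9.56% of all genes. Cacna1g, a T-type calcium channel, was at 0.62 (adjusted p = 0.207) and Cacna1e, an R-type channel, at -0.71 (adjusted p = 0.302). Of 14 measured genes of potassium pumps and cotransporters (18 listed), 0 were called and 0 had an unadjusted p under 0.05, against 9.56% of all genes, with a median of 0.03. Slc12a2, the sodium-potassium-chloride cotransporter, was at 0.20 (adjusted p = 0.770) and Slc12a4 at 0.20 (adjusted p = 0.819).

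Markers of other cell types were read in the same way, and limma called 0 of them. Counts of groups apart in these short lists stand beside 15.5% of all genes, 7.90% higher and 7.64% lower in cKO. All 5 endothelial markers were measured, and their summed intensity was between 558 and 663 on cKO arrays, against 750 to 757 on WT arrays. Of the 5, 2 were lower on every cKO array, Emcn and the dim Tie1 (means of 21.8 in cKO and 50.8 in WT). The others overlapped, Kdr at -0.25, Cdh5 at -0.19 and Pecam1 at 0.06. For all 4 pericyte markers the sum was between 1154 and 1320 on cKO arrays, against 1611 to 1950 on WT arrays. Of the 4, 2 were lower on every cKO array, Abcc9 and Rgs5, while Cspg4 (-0.29) and Pdgfrb (-0.06) overlapped. Young neuron (5 of 5), ventral telencephalon (7 of 7), microglia (5 of 5) and meninges (5 of 5) sums overlapped between the groups. They ran from 47559 to 53670 in cKO and 48338 to 59298 in WT for young neurons, with 0 of 5 apart. For ventral telencephalon they ran from 3308 to 3751 in cKO and 2616 to 4025 in WT. In this list 2 of 7 had groups apart, both higher in cKO. They were Gad1 at 0.48 (adjusted p = 0.355) and Nkx2-1 at 1.01 (adjusted p = 0.380), which averaged 39.4 in cKO and 10.8 in WT, below the pseudocount, while the other 5 overlapped, from -0.26 to 0.21. For microglia they ran from 710 to 1063 in cKO and 894 to 1257 in WT, and for meninges from 176 to 1446 in cKO and 329 to 445 in WT, with cKO 3 the highest, and 0 markers of either list had groups apart. No marker was at 0 on these arrays, where a signal is always above 0. The part of these cell types in the potassium channel values was not tested, and fewer cells of a type and less RNA per cell cannot be told apart in this tissue.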

How the data were processed

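Total RNA of E14.5 mouse dorsal telencephalon was measured on single-colour Affymetrix arrays, 3 cKO and 3 WT, from 250 ng each. The deposited intensities come from the Affymetrix Expression Console, per the submitters' processing notes. Neither its version nor its summary method is given in the sources used here. The authors' values are intensities on a linear scale, and their trimmed means (2% at each end) were 497.2 to 497.7 on all arrays. No detection calls were used. The number of arrays limits the precision.

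Deposited intensities were taken here to log2(intensity + 16), with no further normalization. Of 45037 probe sets, 34945 had 1 gene in the platform annotation, 932 several and 9160 none. All 81 members matched RefSeq by Entrez identifier. The fit was limma 3.58.1 in R 4.3.3 (lmFit, eBayes), genotype as its only term, with Benjamini-Hochberg adjustment over all 18193 genes, or over all probe sets where said. It was tested on simulated data. Log2 fold changes are cKO minus WT, and low values make them smaller than the intensity ratio.

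Named genes are the members called, the 20 with the smallest p, the 8 brightest and, in each class, the member with the smallest p, with arrays given for 12 of them and, of each other list, the 2 with the smallest p. Kcna6, Kcnh2, Kcnh3, Kcnh5, Kcnd1, Kcnd2, Kcnab2, Kcnab3, Kcnt1 and the cell type markers were named after their values were seen. The members and lists were chosen with earlier results of these data known. Alternatives tried were other normalizations, pseudocounts, filters, variance models, probe set choices, blocks and left-out arrays.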

Additional observations from a re-analysis of the deposited data

How the results depend on the processing

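The count of all genes called, 114 of 18193, came to 58 and 215 with pseudocounts of 1 and 64. It came to 127 with quantile normalization, 80 with the mean of all probe sets and 252 of 10688 without genes below the median brightness. With trend and robust settings it came to 244, with array weights to 189 and without both arrays numbered 3 to 8. It ran from 26 to 53 in fits without 1 array. The count of potassium channel genes called, 1 of 81, came to 2 with quantile normalization or array weights (Kcnk2 added) and 2 with the mean of all probe sets (Kcns3 added). It came to 4 with a pseudocount of 64, with trend and robust settings or, of 33 members left, without genes below the median brightness (Kcnk2, Kcnq3 and Kcnd3 added). Without both arrays numbered 3, limma called 0 members. Before adjustment 11 higher and 6 lower members of the 81 had p below 0.05 in that fit, where 9.78% of all genes did. Leaving out 1 array kept the count at 1. Kcnh1 passed in 17 of 18 alternatives. The cause of the added calls was not tested.

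Members with groups apart numbered 11 higher and 7 lower. Without genes below the median brightness, which left 33 members, 5 were higher and 6 lower (33.3%, against 17.8% of all genes left). With both arrays numbered 3 left out, 24 were higher and 14 lower (46.9%, against 39.4% of all genes), since fewer arrays overlap less. Fits without 1 array gave 12 to 17 higher and 8 to 12 lower. In those fits 24.7% to 34.6% of members had groups apart, against 23.3% to 27.2% of all genes. The members' median log2 fold change, -0.04, ran from -0.055 to 0.0557 in those fits and was highest without WT 3.

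Of 30 named members, 24 kept their direction in every alternative and 6 did not. With the mean of all probe sets the value turned to 0.019 for Kcne1, -0.0081 for Kcnf1, 0.16 for Kcng1, -0.23 for Kcnip3 and -0.26 for Kcnj11. Without cKO 2 it turned to 0.0078 for Kcng1 and 0.12 for Kcnma1. Without WT 1 it turned to 0.0901 for Kcne1 and 0.0594 for Kcnma1, and without WT 3 to 0.0729 for Kcng1 and 0.066 for Kcnma1. Over the fits without 1 array, Kcne1 ran from -0.457 to 0.0901, Kcng1 from -0.24 to 0.0729 and Kcnma1 from -0.23 to 0.12. The cause was not tested. Probe sets of the opposite sign to the brightest were at -0.67 for Kcnj11, -0.44 for Kcnf1 and 0.39 for Kcng1. Others were at -0.12 for Kcnn4, 0.44 for Kcna1, 0.32 for Kcnc1, 0.27 for Kcne1, and 0.07 and 0.05 for Kcnma1. Those of Kcna2, Kcnip1 and Kcnip3 are given above.

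With the replicate number as a block, 17 genes were called over all, 1 of them a member. Deviations from the group means of arrays that share a number correlated across genes at 0.07, 0.17 and 0.37. While cKO 2 and cKO 3 correlated best with the WT array of their own number, cKO 1 correlated best with WT 2 (0.15). These values do not settle a pairing. The numbers are not taken to pair the embryos, since the design text does not say that they do. The 3 arrays per group and dim probe sets limit what can be called.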

Other observations

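The genes beside Kcnh1 on chromosome 1 were looked at after its value was seen. Among the 5 measured genes on each side in the RefSeq order, limma called 0 over all genes. Of these 10 neighbours 1, Syt14, had an unadjusted p under 0.05, against 9.56% of all genes. The log2 fold changes of the 10 ran from -0.32 to 0.47, against 2.62 for Kcnh1. The nearest on either side, Rcor3 and Hhat, were at 0.17 (adjusted p = 0.895) and -0.0047 (adjusted p = 0.998). Syt14, a synaptotagmin, averaged 959 ± 138 in cKO and 683 ± 26.4 in WT (0.47, adjusted p = 0.327), with groups apart. Sertad4 had groups apart too, but was lower in cKO (-0.24, adjusted p = 0.699). Of the 81 potassium channel genes, 8 lie on chromosome 1, and 4 of these had groups that did not overlap, where 22.2% of all members and 15.5% of all genes did. They were Kcnh1, Kcnq5 and Kcnt2, higher in cKO, and Kcnk2, lower in cKO. These were picked out after their values were seen, and no test was made of their position. The 22.2% includes these 4, and the share over all genes of chromosome 1 was not counted.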
